A study of Mus musculus with 45 samples.

Results

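Peaks of the transcriptional repressor Capicua (CIC) at Etv1 and Etv4 were compared across 3 peak lists from mouse cerebellum. A peak was counted for a gene when its summit, the base with the strongest signal, fell inside the gene or no more than 50 kb from its ends. By this rule, 17 of the 7196 peaks in all lists belonged to Etv1 or Etv4. These were 6 of 4588 peaks for WT, 6 of 1690 for 154Q and 5 of 918 for 154Q[V591A;S602D].

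CUT&RUN, an assay in which nuclease tethered by an antibody releases the DNA bound by a protein, was performed on cerebellar nuclei of 15 mice with 3 antibodies, giving 45 samples, of which the 15 CIC samples bear on the lists used here. All mice were 10 weeks of age and of strain C57BL/6 by the labels (C57BL/6J by the methods of the study), and untreated as far as the labels state. WT mice (n = 4) carried no Atxn1 mutation, 154Q mice (n = 4) were heterozygous for an Atxn1 allele with an expanded polyglutamine tract (Atxn1 154Q/2Q), and 154Q[V591A;S602D] mice (n = 3) were heterozygous in the same way and carried on the expanded allele a pair of substitutions made by CRISPR-Cas9 to break the binding of ATXN1 to CIC. CIC KO mice (n = 4; Engrailed1-Cre;Cicfl/fl), which lose Cic in the lineage that expresses Engrailed1, were the control against which every list was called. The animals of a genotype were merged before peaks were called, so each list is 1 measurement with no replicate check. No test between genotypes was possible with the lists. The study compared binding between genotypes on reads counted per animal, which the lists do not hold. The lists hold no expression values with which to examine the cell types present.

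Etv1, Etv4 and Etv5 form the PEA3 group of the ETS family, transcription factors that switch on genes downstream of receptor tyrosine kinases and ERK signaling. CIC is a repressor of the HMG-box class that binds octamers of the kind TGAATGAA, and ERK signaling relieves its repression. The PEA3 genes are among the best known CIC targets. ATXN1, the protein expanded in spinocerebellar ataxia type 1, forms a complex with CIC.

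The 17 peaks fell at 6 sites, 4 at Etv1 and 2 in the Etv4 window. The DNA that carried the summits is shown first, because the octamers in it are what the sites can be compared by. The site at the start of Dhx8 overlaps a 5′ UTR and is not printed. Sequences are from the GRCm38 assembly, read 5′ to 3′ in the direction of Etv1 or Etv4 transcription, and capitals mark an octamer (TGAATGAA, TGAATGGA, TCAATGAA or TCAATGGA) on either strand.
Etv4, upstream of the start, chr11:101785372-101785565, minus strand: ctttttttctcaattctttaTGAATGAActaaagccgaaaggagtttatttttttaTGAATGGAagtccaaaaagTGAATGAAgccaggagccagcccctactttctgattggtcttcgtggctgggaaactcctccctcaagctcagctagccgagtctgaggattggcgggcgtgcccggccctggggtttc
Etv4, across the start, chr11:101785349-101785378, minus strand: gggtTTCATTCAcaaaagTCAATGAAacaa
Etv1, upstream site, chr12:38778586-38778726, plus strand: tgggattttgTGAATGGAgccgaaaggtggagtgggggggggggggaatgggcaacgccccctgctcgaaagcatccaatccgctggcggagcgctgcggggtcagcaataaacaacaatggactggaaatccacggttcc
Etv1, 1.4 kb intronic site, chr12:38780729-38780829, plus strand: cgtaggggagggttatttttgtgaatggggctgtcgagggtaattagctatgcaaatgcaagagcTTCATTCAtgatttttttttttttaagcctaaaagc
Etv1, 9.4 kb intronic site, chr12:38788723-38788823, plus strand: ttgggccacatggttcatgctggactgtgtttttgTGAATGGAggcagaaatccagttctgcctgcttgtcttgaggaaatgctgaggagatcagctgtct
Etv1, 54 kb intronic site, chr12:38833106-38833206, plus strand: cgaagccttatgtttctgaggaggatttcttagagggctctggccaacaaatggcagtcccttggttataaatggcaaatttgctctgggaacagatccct

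The first stretch held 3 octamers in 194 bases directly upstream of Etv4, and the next held 2 more in 30 bases across its annotated start. A predicted non-coding RNA, Gm39392, is annotated by RefSeq on the opposite strand from chr11:101785321-101787591 and so covers both stretches. The Etv1 upstream, 1.4 kb and 9.4 kb stretches held 1 octamer each, and the 54 kb stretch, centred on the 154Q summit, held none.

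Etv1 (ENSMUSG00000004151.17) spans chr12:38779380-38870484 on the plus strand. It had 4 peaks for WT, 4 for 154Q and 3 for 154Q[V591A;S602D], made up of 10, 7 and 4 summits. Of 21911 protein-coding genes, 35.8% had at least 1 peak by the 50 kb rule for WT, 18.0% for 154Q and 11.4% for 154Q[V591A;S602D]. As many peaks as at Etv1, or more, were found at 3.93% of genes for WT, 0.447% for 154Q and 0.548% for 154Q[V591A;S602D]. Windows differ in length between genes, and that of Etv1 measured 191.1 kb. All Etv1 peaks also met a narrower rule, the gene body or 5 kb upstream, which is close to that of the study. The study first paired each peak with its closest gene. That step was not taken here, so a peak can count for several genes.

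Etv4 (ENSMUSG00000017724.14) spans chr11:101769742-101785371 on the minus strand, in a window of 115.6 kb. It had 2 peaks in each list. That number or more was found at 15.6% of genes for WT, 5.17% for 154Q and 1.89% for 154Q[V591A;S602D]. Only 1 of the pair, at the start of Etv4, met the narrower rule. The other lay 36.8 kb past the 3′ end of Etv4 in the 154Q list, at the start of Dhx8, which encodes an RNA helicase of the splicing machinery. No further peak lay between 50 and 100 kb from either gene in any list.

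**Figure D1:**
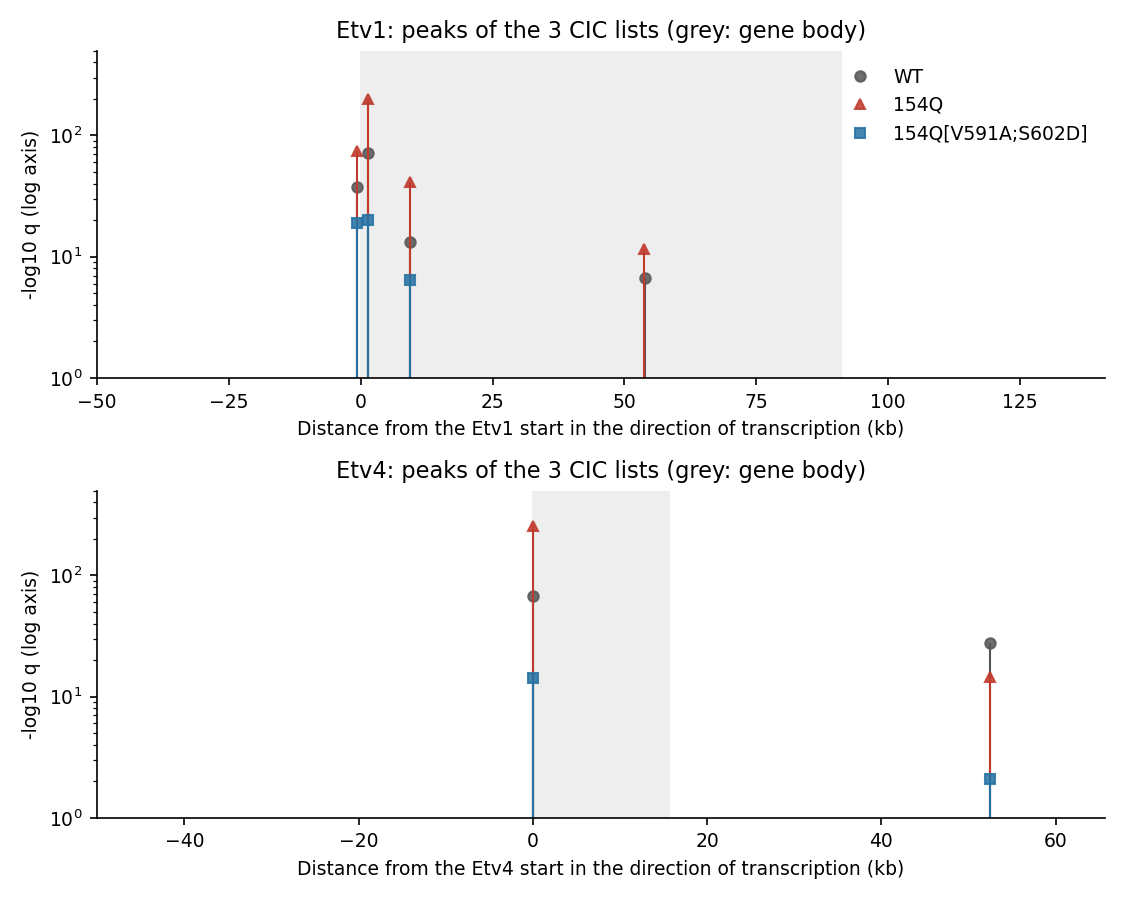
Position of the strongest summit of each peak, as distance from the gene's start in kb, against its −log10 q on a log axis, for WT (circles), 154Q (triangles) and 154Q[V591A;S602D] (squares). Grey marks the gene body. The peaks of the 3 lists stack at the same positions, and the 154Q[V591A;S602D] list has none at the 54 kb site of Etv1.

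Peaks were ranked by −log10 q, the strength of the call against CIC KO, within each list after removing peaks that were more than 50% repeat sequence from the WT and 154Q[V591A;S602D] lists. This left 4432 peaks for WT, 1690 for 154Q and 848 for 154Q[V591A;S602D]. Because q grows with depth as well as with enrichment, and the depth of the 154Q library cannot be read from its list, rank within a list was compared rather than q between lists.

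At the start of Etv4, the summit lay 13 bp upstream of the annotated start for WT, 35 bp for 154Q and 34 bp for 154Q[V591A;S602D]. The peak spanned chr11:101785284-101785536 for WT and chr11:101785298-101785535 for 154Q[V591A;S602D], while the 154Q list gave the single base 101785406. Its −log10 q was 68.0 for WT, 257 for 154Q and 14.3 for 154Q[V591A;S602D]. It ranked 28 of 4432 (0.632% of the list) for WT, 9 of 1690 (0.533%) for 154Q and 52 of 848 (6.13%) for 154Q[V591A;S602D]. By rank number the peak stood near the top of each list. Its rank number was smallest for 154Q and largest for 154Q[V591A;S602D], although that list is the shortest. The shares also depend on where each list ends. Counted by gene under the narrower rule, 7 of the 1521 genes with a peak in the 154Q list had a peak ranked as high or higher, Etv4 included, against 29 of 3548 for WT and 57 of 815 for 154Q[V591A;S602D].

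At Etv1, the strongest site lay 1.4 kb inside the gene, in an intron of the 3 transcripts that cover it and 66 to 69 bp from the start of a shorter transcript. Its summits were at 38780782 for WT, 38780779 for 154Q and 38780780 for 154Q[V591A;S602D], a spread of 3 bp. The peak spanned chr12:38780237-38781169 for WT with 5 summits and chr12:38780358-38781094 for 154Q[V591A;S602D] with 2 summits, and the 154Q peak had 3 summits. Its −log10 q was 72.1 for WT, 201 for 154Q and 20.2 for 154Q[V591A;S602D]. It ranked 24 (0.542%) for WT, 11 (0.651%) for 154Q and 24 (2.83%) for 154Q[V591A;S602D]. The rank number was the same for WT and 154Q[V591A;S602D], and the shares of these lists differ only through their lengths.

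The upstream site of Etv1 lay 696 bp before the annotated start for WT and 704 bp before it in the other lists. It spanned chr12:38778395-38778825 for WT and chr12:38778531-38778738 for 154Q[V591A;S602D]. The −log10 q was 37.4 for WT, 74.1 for 154Q and 19 for 154Q[V591A;S602D]. The ranks were 83 (1.87%), 32 (1.89%) and 30 (3.54%). This site and the 1.4 kb site lay close to each other in rank in the 154Q[V591A;S602D] list, whereas in the other lists the 1.4 kb site stood well above it.

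The site 9.4 kb inside Etv1, in an intron of all 7 transcripts that cover it and over 5 kb from any annotated start, had its summits within 24 bp of each other. The intervals were chr12:38788564-38788884 for WT and chr12:38788681-38788829 for 154Q[V591A;S602D]. The −log10 q was 13.3 for WT, 41.5 for 154Q and 6.37 for 154Q[V591A;S602D]. It ranked 525 (11.8%) for WT, 58 (3.43%) for 154Q and 156 (18.4%) for 154Q[V591A;S602D]. Its rank number was smallest for 154Q and largest for WT, the longest list.

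The remaining Etv1 site was intronic, 54 kb inside the gene for WT and 53.8 kb for 154Q. It ranked 1316 (29.7%) for WT with −log10 q 6.62 and 255 (15.1%) for 154Q with −log10 q 11.5. The summits lay 210 bp apart, the farthest of any site, although the 154Q summit at 38833156 fell inside the WT interval chr12:38833137-38833429. The 154Q[V591A;S602D] list had no peak there. With the WT background at this site scaled to the depth of 154Q[V591A;S602D], a pileup of 25 fragments would have been needed for a call, and the WT pileup scaled in the same way was 32.1 fragments, with a counting interval of 22.9 to 43.7. A pileup as high relative to depth as that of WT could thus have been called, but the interval reaches below the limit, so the missing call does not show a lower signal.

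At the start of Dhx8, the −log10 q was 27.8 for WT, 14.4 for 154Q and 2.09 for 154Q[V591A;S602D]. It ranked 155 (3.5%) for WT, 197 (11.7%) for 154Q and 573 (67.6%) for 154Q[V591A;S602D]. The summit lay 59 bp before the start of transcript Dhx8-201 for WT, 15 bp before it for 154Q and 5 bp past it, in the 5′ UTR, for 154Q[V591A;S602D]. The annotated Dhx8 gene begins further upstream, at 101732919, so the WT summit lay before the gene and the other summits inside it. The intervals chr11:101732775-101732951 for WT and chr11:101732923-101733055 for 154Q[V591A;S602D] overlapped only at their edges. Of the 6 sites, this was the only one whose rank number was larger for 154Q than for WT, although the 154Q list is the shorter.

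**Figure D2:**
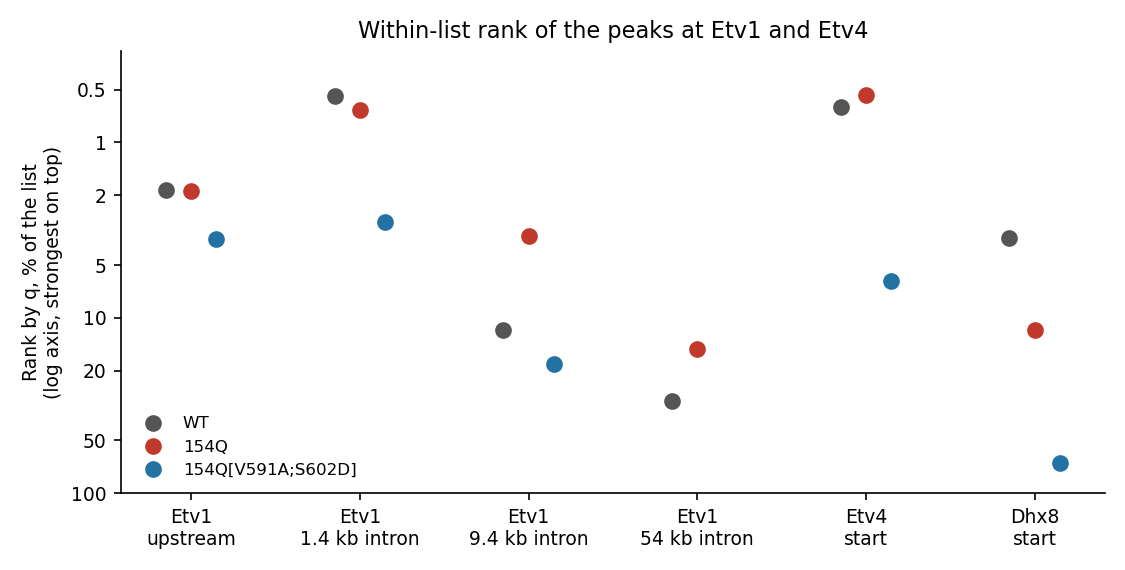
Rank of each site's peak by −log10 q as a percent of its list (log axis, strongest on top) for the 3 lists. The Etv1 1.4 kb site and the Etv4 start lie under 1% for WT and 154Q and at 2.83% and 6.13% for 154Q[V591A;S602D], and the Dhx8 start lies at 3.5%, 11.7% and 67.6%. Shares depend on list length (4432, 1690 and 848 peaks).

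The fold enrichment given for WT and 154Q[V591A;S602D] sets the fragment pileup at the summit against the background expected from the merged CIC KO library. Both were recovered from the fold enrichment and −log10 p for 99.8% of WT and 99.7% of 154Q[V591A;S602D] summits. The deposited 154Q list lacks the columns needed for this recovery. The smallest background, taken as the genome-wide level, was 6.586 fragments for WT and 5.28 for 154Q[V591A;S602D], a depth ratio of 1.25.

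At the start of Etv4, the pileup was 338 fragments for WT (95% Poisson interval 303 to 376) over a background of 104, and 188 for 154Q[V591A;S602D] (162 to 217) over a background of 89.6. The fold enrichment was accordingly 3.22 and 2.09. These backgrounds are 15.8 and 17.0 times the genome-wide level, and a higher one was found at only 43 of 4428 peaks (0.971%) for WT and 3 of 848 (0.354%) for 154Q[V591A;S602D]. The CIC KO libraries thus held many fragments at this site. By fold enrichment, in place of −log10 q, the peak ranked 1665 of 4432 for WT and 821 of 848 for 154Q[V591A;S602D]. The part of this control signal in the ranks was not tested.

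The upstream site of Etv1 also had a high background, 86.6 fragments for WT and 63.9 for 154Q[V591A;S602D], or 13.1 and 12.1 times the genome-wide level. Its pileup was 242 (212 to 274) for WT and 161 (137 to 188) for 154Q[V591A;S602D], with fold enrichments of 2.77 and 2.50. By fold it ranked 2735 for WT and 759 for 154Q[V591A;S602D].

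The 1.4 kb site of Etv1 differed from these. Its background was 19.3 fragments for WT and 16.0 for 154Q[V591A;S602D], which is 2.93 and 3.03 times the genome-wide level. Over this, the pileup reached 148 (125 to 174) for WT and 73 (57.2 to 91.8) for 154Q[V591A;S602D], with fold enrichments of 7.34 and 4.36. It ranked 46 by fold for WT and 49 for 154Q[V591A;S602D]. The 9.4 kb site, with a fold enrichment close to this for 154Q[V591A;S602D], ranked 52 by fold there and 319 for WT.

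The 9.4 kb site had a pileup of 43 (31.1 to 57.9) over 8.19 for WT and 27 (17.8 to 39.3) over 5.49 for 154Q[V591A;S602D], with fold enrichments of 4.79 and 4.31. The 54 kb site had a pileup of 40 (28.6 to 54.5) over 11.7 for WT. At the start of Dhx8 the pileup was 72 (56.3 to 90.7) over 11.7 for WT and 22 (13.8 to 33.3) over 6.66 for 154Q[V591A;S602D], with fold enrichments of 5.75 and 3.0. Background at these sites was at most 1.78 times the genome-wide level.

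**Figure D3:**
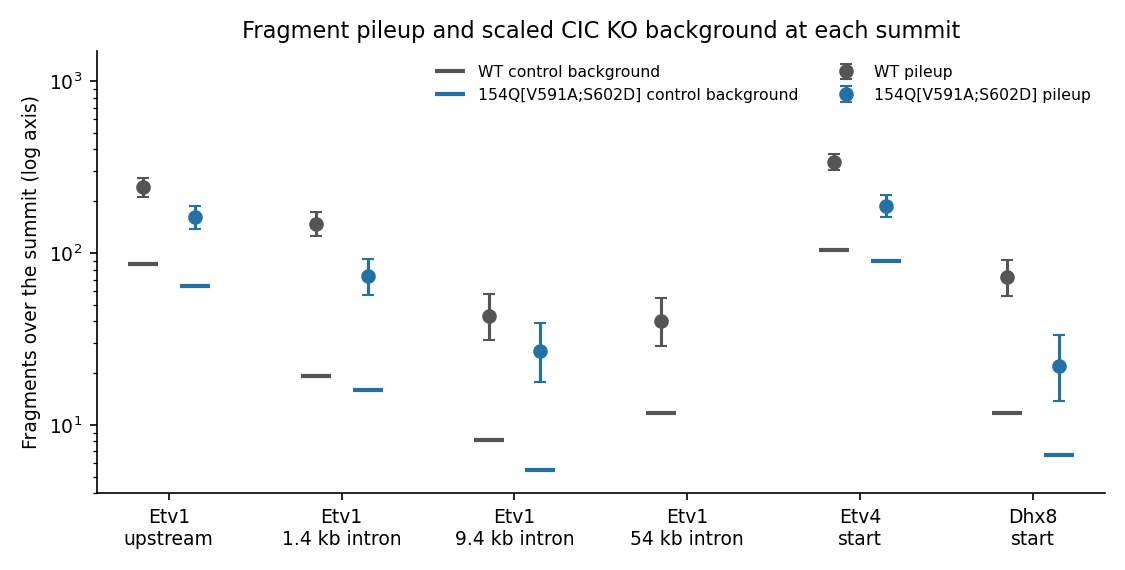
Fragments over the summit (points, with 95% Poisson intervals that cover counting error only) and the background scaled from CIC KO (bars) for WT and 154Q[V591A;S602D], on a log axis. The Etv4 start and the Etv1 upstream site have both the highest pileups and the highest backgrounds.

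The WT pileup was higher than that of 154Q[V591A;S602D] at each of the 5 sites called in both lists. The ratio was 1.5 (95% conditional binomial interval 1.23 to 1.85) at the Etv1 upstream site, 2.03 (1.52 to 2.72) at the 1.4 kb site, 1.59 (0.962 to 2.68) at the 9.4 kb site, 1.80 (1.5 to 2.16) at the Etv4 start and 3.27 (2.01 to 5.54) at the Dhx8 start. These ratios are not scaled for depth, and the intervals of the Etv1 upstream site and the 9.4 kb site include the depth ratio of 1.25, so there the difference is not beyond depth and counting error. The median over all 596 peaks shared by both lists was 1.64, with an interquartile range of 1.28 to 2.05. The 3 Etv1 sites and the Etv4 start therefore lay inside the central range of all shared peaks, and their intervals include the median. The Dhx8 start lay outside it, as only 11 of the 596 shared peaks (1.85%) had a higher ratio, although the summits compared there are 64 bp apart. These intervals cover counting error only, not the spread between animals, and fragments may include PCR copies.

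**Figure D4:**
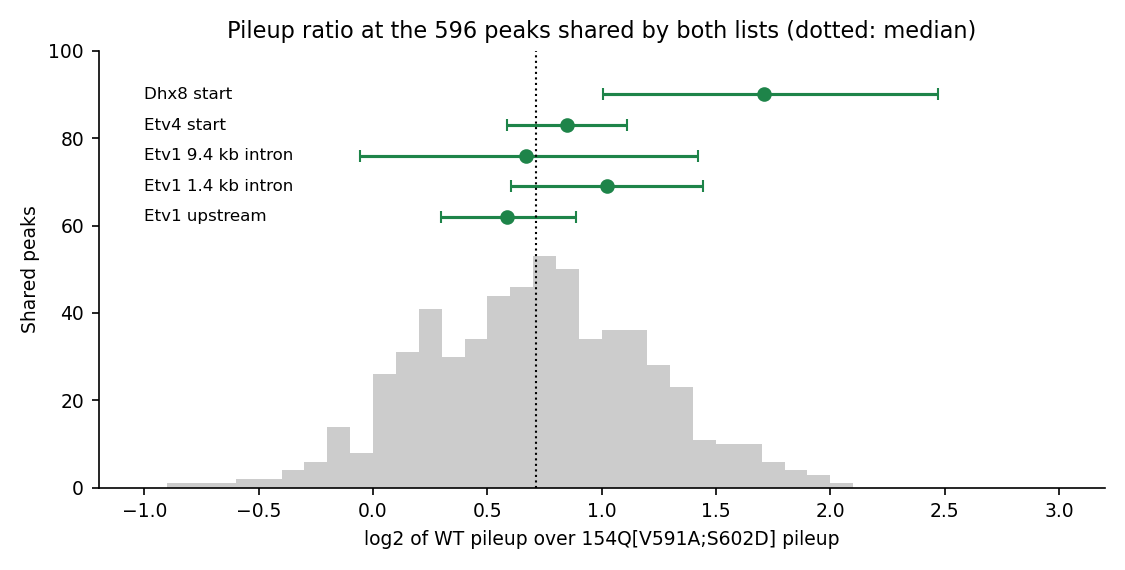
Histogram of the log2 ratio of WT to 154Q[V591A;S602D] pileup at 596 shared peaks, with the median dotted, and the 5 shared sites at Etv1, Etv4 and Dhx8 as points with 95% counting intervals. The Dhx8 start lies to the right of most shared peaks, and the other 4 intervals cross the median.

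Octamers were searched within 50 bp of each strongest summit. In each list, 3 of the peaks in the Etv1 and Etv4 windows held at least 1, namely those at the Etv1 1.4 kb site, the Etv1 9.4 kb site and the Etv4 start. Over all peaks, the share was 2.39% for WT, 6.57% for 154Q and 3.54% for 154Q[V591A;S602D], and it was 1.05% in windows of the same length at the starts of 21911 protein-coding genes. Since CIC targets were the reason for choosing these genes, the counts are given as a description. In total, 8 octamers lay within 150 bp of a summit, a distance chosen after the positions had been seen. They are printed with 6 bases on each side, in the orientation of the octamer, to let the flanks be compared.
Etv1 upstream site, chr12:38778590-38778609, plus strand: attttgTGAATGGAgccgaa
Etv1 1.4 kb intronic site, chr12:38780788-38780807, minus strand: aaatcaTGAATGAAgctctt
Etv1 9.4 kb intronic site, chr12:38788752-38788771, plus strand: tttttgTGAATGGAggcaga
Etv4 start, chr11:101785347-101785366, minus strand: caaaagTCAATGAAacaaag
Etv4 start, chr11:101785361-101785380, plus strand: cttttgTGAATGAAacccca
Etv4 start, chr11:101785477-101785496, minus strand: aaaaagTGAATGAAgccagg
Etv4 start, chr11:101785496-101785515, minus strand: tttttaTGAATGGAagtcca
Etv4 start, chr11:101785532-101785551, minus strand: tctttaTGAATGAActaaag

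TGAATGAA made up 4 of the 8, TGAATGGA 3 and TCAATGAA 1, and TCAATGGA was not found. A G preceded 5 of the 8 octamers and an A the other 3. The octamer of the 1.4 kb site centred 16 to 19 bp from the summit in the 3 lists, and that of the 9.4 kb site 12 bp from the summit for 154Q, 15 bp for WT and 36 bp for 154Q[V591A;S602D]. The octamer of the Etv1 upstream site lay 77 bp from the 154Q summit and 85 bp from that of WT, outside the 50 bp window. The 54 kb site and the Dhx8 start had no octamer within 150 bp, which says only that these letters are not in the window.

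The start of Etv4 held 5 octamers in 193 bp, and the 154Q summit lay between them, 36 bp from the nearest. Counting this peak itself, 5 of 1690 peaks for 154Q and 3 of 848 for 154Q[V591A;S602D] had 5 or more within 150 bp of the summit. The WT summit had 4 within 150 bp, since the fifth centred 158 bp away, and 5 of 4432 peaks for WT had 4 or more. Around the annotated starts of protein-coding genes, Etv4 had 4 within 150 bp and was the only gene of 21911 with that many.

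**Figure D5:**
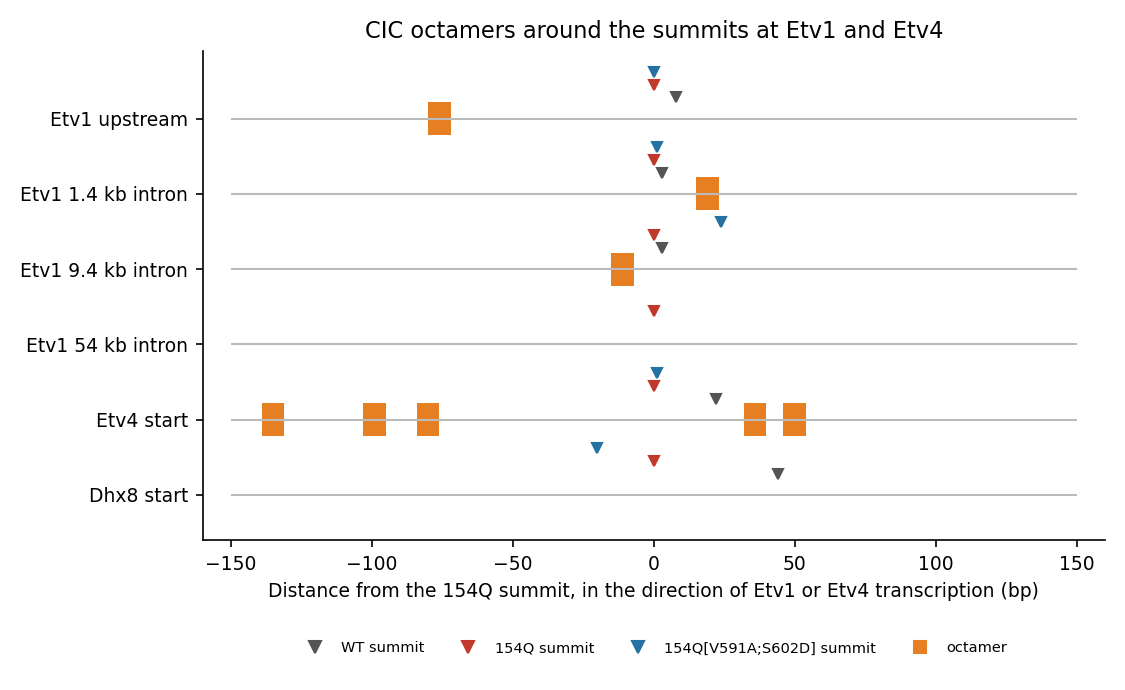
Octamers (orange) and the strongest summit of each list (triangles) by distance in bp from the 154Q summit, read in the direction of Etv1 or Etv4 transcription. The Etv4 start has 5 octamers on both sides of its summits, 3 Etv1 sites have 1 each, and the WT summit of the 54 kb site lies beyond the axis.

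Etv5, the remaining PEA3 gene, had 3 peaks in each list under the narrower rule. Its best peak ranked 1 for WT, 4 for 154Q and 1 for 154Q[V591A;S602D], above the best peaks of Etv1 and Etv4 in every list.

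Among the 26 ETS family genes listed, 8 (30.8%) had a peak for WT under the narrower rule, 3 (11.5%) for 154Q and 4 (15.4%) for 154Q[V591A;S602D]. The corresponding shares of all protein-coding genes were 16.2%, 6.94% and 3.72%. Genes with a peak in all 3 lists made up 2.36% of all protein-coding genes and, within the family, were Etv1, Etv4 and Etv5. Of the 23 other ETS genes, 5 had a peak for WT, none for 154Q and 1 for 154Q[V591A;S602D]. Their best ranks for WT ran from 720 for Elf2 and 870 for Elk3, a ternary complex factor, to 3179 for Elf1, far below the PEA3 genes, and the 154Q[V591A;S602D] peak was that of Elk3 at rank 395.

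Of 18 FGF and ERK feedback genes listed, 17 were found in the annotation, and under the narrower rule 9 (52.9%) had a peak for WT, 11 (64.7%) for 154Q and 5 (29.4%) for 154Q[V591A;S602D]. Over all protein-coding genes these shares were 16.2%, 6.94% and 3.72%, and 2.36% had a peak in all 3 lists. The 5 feedback genes (29.4%) with a peak in all 3 lists were Dusp4 and Dusp5, phosphatases that inactivate MAP kinases, Spred1 and Spred2, which restrain Ras signaling, and Spry4, a feedback inhibitor of receptor tyrosine kinase signaling. Spry4 ranked 4 for WT, 2 for 154Q and 2 for 154Q[V591A;S602D], and Dusp4 ranked 11, 8 and 13. Spred1 ranked 8, 7 and 7. In each list these 3 genes ranked above Etv1 and Etv4. Spred2 ranked 82, 14 and 51 and Dusp5 301, 69 and 72, both with their smallest rank number for 154Q. This list was also drawn up with CIC targets in mind and is no independent evidence.

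Likeness of pattern was measured as the largest difference in log2 best rank over the 3 lists, among the 517 genes with a peak in each. The 5 genes nearest to Etv1 were Ankrd40, Mafg, Hsd11b1, Lamb3 and Brinp2, with largest differences of 0.71, 0.737, 0.841, 0.841 and 0.862. Hsd11b1 and Lamb3 had the same ranks in every list. Since the narrower rule lets a peak count for several genes, they may share their peaks and not be separate loci. The 5 nearest to Etv4 were Ankrd40, Mafg, Etv1, Brinp2 and Zdhhc5, at 1.00, 1.00, 1.12, 1.18 and 1.29. Ankrd40, the nearest to Etv1 and level with Mafg as the nearest to Etv4, ranked 31 for WT, 18 for 154Q and 27 for 154Q[V591A;S602D].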

How the data were processed

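For CUT&RUN of cerebellar nuclei, reads were trimmed with Trimmomatic (0.36), aligned with Bowtie2 (2.3.4.1) to mm10 (GRCm38) and filtered with SAMtools (1.10) and bedtools (2.29.1), keeping CIC fragments under 120 bp. Replicates were merged per genotype by the authors, and peaks were called with MACS3 at a q-value of 0.05 against merged CIC KO. The lists deposited for WT and 154Q[V591A;S602D] give fold enrichment, a ratio, with −log10 p and −log10 q per summit, and the deposited 154Q list gives 1-bp summits with −log10 q alone. Spike-in scaling does not enter these values as far as stated, and library totals are unknown from the lists. H3K27ac and IgG samples were not analysed here.

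Summits were joined to peaks by peak number, on chromosomes 1 to 19, X and Y, each represented by its strongest summit. A 154Q peak spanned its summits, and peaks that shared at least 1 bp formed a site. Repeat share was the soft-masked share of the GRCm38 sequence, and gene models were GENCODE basic. WT and 154Q[V591A;S602D] peaks with over 50% masked bases were left out of ranks. The 154Q list, judged by its name, had already been filtered for repeats by the authors. It gives summits without intervals, so the filter was not applied to it here. Pileup and background were solved as the whole pileup whose Poisson tail gave the −log10 p, accepted within 0.01. The solving was tested on values simulated with the same formula. That test cannot show whether the deposited values follow this formula. Python 3.11.15, scipy 1.17.1 and pysam 0.24.0 were used. Coordinates are 1-based. The genes, the ETS and feedback lists, the octamers and the rules were chosen with earlier results of these data known. Named genes were Etv1, Etv4, Etv5, those at the sites, list members with a peak in all 3 lists and the 5 genes most like each of Etv1 and Etv4, and Elf1, Elf2 and Elk3 were named after their values had been seen. Alternatives were other gene windows, a stricter q, the repeat filter, summits in place of peaks, lists of equal length, other rankings, summit distances and octamer windows, with 2 added after seeing the data.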

Additional observations from a re-analysis of the deposited data

How the results depend on the processing

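No paired analysis of the lists was possible because the authors merged the animals of a genotype before calling peaks. For the same reason no animal could be left out in turn. Of 75 alternative values over 22 results, 63 stayed within 1.5 times the reported count or rank, or inside the counting interval of a pileup ratio, and 12 did not. Of the 63, 4 could not move, because the repeat filter was not applied to the 154Q list. For 154Q[V591A;S602D], the shortest list, cutting to equal length is the same setting as the repeat filter. Cut to the length of the shortest list, Etv1 kept 3 peaks for WT, 4 for 154Q and 3 for 154Q[V591A;S602D]. The difference in peak number between WT and 154Q[V591A;S602D] was thus absent at equal length. The limit of 1.5 times still counts that WT value among the 63. Counting summits in place of peaks gave 10 at Etv1 for WT and 7 for 154Q. With the gene body and 5 kb upstream alone, Etv4 kept 1 peak for WT, 1 for 154Q and 1 for 154Q[V591A;S602D], since the site at Dhx8 falls outside. At q below 0.001, that site was lost from 154Q[V591A;S602D], which left 1 Etv4 peak there and 1 site shared by all 3 lists. Ranking by fold enrichment put the best Etv1 peak at 46 (WT) and 49 (154Q[V591A;S602D]), while the best peak in the Etv4 window stood at 143 and 546, in both cases the one at Dhx8. With 25 bp on either side, 1 summit for 154Q[V591A;S602D] had an octamer. The ratio of excess over background, scaled for depth and added after seeing the data, ran from 1.28 at the Etv1 upstream site to 3.16 at Dhx8, against a median of 1.4 over the 596 shared peaks (quartiles 1.04 and 1.91). It was below that median at the Etv1 upstream site and, at 1.3, at the 9.4 kb site. The depth of the 154Q library is unknown, which limits comparisons of its −log10 q with the other lists.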
